A study of Mus musculus with 8 samples.

Results

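The genes described here are 6 long noncoding RNAs of the mouse that act or are made in the nucleus: *Malat1*, *Neat1*, *Tug1*, *Firre*, *Lncenc1* and *Mir17hg*. They were chosen by gene symbol from the 50902 genes of an RNA-seq table, and each symbol had 1 entry. All 6 passed the filter on low values and were tested.

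The RNA came from E14 mouse embryonic stem cells (ESCs), an established line, grown with LIF and 2 kinase inhibitors (2i). The comparison addressed what the loss of the RNA-binding TAM domain of BAZ2A does to transcript levels. BAZ2A is the large subunit of a chromatin remodelling complex. In both groups, a Flag and HA tagged BAZ2A transgene that the siRNA cannot target had been inserted with PiggyBac transposase, and the endogenous *Baz2a* was knocked down with siRNA. Cells were collected 3 days after the siRNA. The first group expressed full-length BAZ2A (BAZ2A wt, 4 libraries) and the other BAZ2A without TAM (BAZ2A ΔTAM, 4 libraries). Each group was a line of its own, from puromycin-selected cells that were cloned and screened by western blot, so the TAM deletion and other differences between the lines cannot be told apart. *Baz2a* itself, counted from the transgene and the endogenous gene together, lay between 9.95 and 11.2 RPKM in BAZ2A wt and between 17.05 and 18.9 RPKM in BAZ2A ΔTAM. The labels do not say that the 4 libraries of a group came from separate cultures, so the p-values measure the spread between these libraries, which may be technical.

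Values are RPKM, that is, reads per 1000000 reads of the library and per kilobase, here per kilobase of genomic span from the start to the end of a gene. Each library had between 6585593 and 8696304 reads on genes. The ESC markers *Nanog* (19.5 ± 0.105 and 19.9 ± 0.944 RPKM, SD, n = 4 each) and *Pou5f1* were high in both groups. Of the 8 ESC markers listed, 4 fell in BAZ2A ΔTAM and none rose by limma at an adjusted p under 0.05, where 16.0% of all 9002 genes tested fell and 19.9% rose. Those that fell were *Sox2* (log2 difference -0.42), *Klf4* (-0.39), *Dppa5a* (-0.28) and *Esrrb* (-0.20). Markers of other cell types had lower means than the ESC markers listed, and some of them differed between the groups. The summed level of 5 neural markers was 0.706 to 0.827 RPKM in BAZ2A wt and 0.462 to 0.550 in BAZ2A ΔTAM. Of the 2 neural markers tested, *Nes* fell (0.461 ± 0.0574 and 0.232 ± 0.0160 RPKM, log2 difference -0.75, limma adjusted p = 0.000292). *Tubb3* went the other way and did not pass (log2 difference 0.18, limma adjusted p = 0.0969). *Sox1*, below the filter, had 0.0914 ± 0.00964 and 0.0459 ± 0.00551 RPKM with no overlap between the groups. Of the 2 trophoblast markers tested, *Eomes* fell (log2 difference -0.26, limma adjusted p = 0.0359). *Cdx2* went the other way and did not pass (log2 difference 0.28, limma adjusted p = 0.130). With voom on reads recovered from the RPKM values, *Cdx2* was called as higher (0.39, adjusted p = 0.0332) and *Eomes* as lower (-0.46, adjusted p = 0.0205). *Gata3*, below the filter, was higher without overlap, from 12 reads over the BAZ2A wt and 33 over the BAZ2A ΔTAM libraries. The summed level of the 5 trophoblast markers was 0.407 to 0.458 and 0.367 to 0.567 RPKM, that of 4 mesoderm markers 0.734 to 0.808 and 0.585 to 0.779, and that of 5 primitive endoderm markers 0.0183 to 0.0441 and 0.0354 to 0.0596. Most of the mesoderm sum was *T* (0.702 ± 0.0233 and 0.621 ± 0.0732 RPKM, no overlap, limma adjusted p = 0.135). *Kdr*, below the filter, went the other way without overlap (0.00588 ± 0.00134 and 0.0115 ± 0.00230 RPKM, voom log2 difference 0.96, voom adjusted p = 0.00310). The summed level of 6 fibroblast markers was at most 0.0332 RPKM in any library, with *Col3a1* and *Dcn* at 0. The part of the ESC and other markers in the results was not tested.

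Long noncoding RNAs are transcripts that encode no known protein, and many of them stay in the nucleus. *Malat1* gathers at nuclear speckles, the stores of splicing factors, and *Neat1* is the scaffold on which paraspeckles form. *Tug1* and *Firre* act on chromatin and gene expression, *Firre* from the X chromosome, *Lncenc1* is an RNA of naive ESCs, and *Mir17hg* is the precursor from which the miRNAs of the miR-17 cluster are cut.

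On mm10, *Malat1* lies at chr19:5795690-5802672 and *Neat1* at chr19:5824708-5845478, both on the minus strand and 22036 bases apart. *Tug1* lies at chr11:3639785-3649673 and *Firre* at chrX:50555744-50635321, both also on the minus strand. *Lncenc1* lies at chr13:97434970-97497007 and *Mir17hg* at chr14:115042879-115046727, both on the plus strand. GENCODE vM21 gives all 6 the same coordinates. By its exons, *Malat1* and *Neat1* are exonic over 100% of their span, *Tug1* over 98.4% and *Mir17hg* over 91.9%. *Firre* and *Lncenc1* are mostly intron, with exons over 10.4% and 5.32% of the span.

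The 3′ ends of these RNAs bear on the measurement, because the libraries were made from RNA with a poly(A) tail. *Malat1* and the long form of *Neat1* are known to be cut by RNase P and to end in a triple helix of U-rich runs and a genomic A-rich tract instead of a poly(A) tail. Their ends are shown because they hold this structure. In the following stretches, from GENCODE vM21 transcripts, capitals mark the 3 runs of at least 10 bases that both hold. The *Malat1* stretch is chr19:5795928-5796089 and the *Neat1* stretch chr19:5824708-5824807, minus strand.
Malat1: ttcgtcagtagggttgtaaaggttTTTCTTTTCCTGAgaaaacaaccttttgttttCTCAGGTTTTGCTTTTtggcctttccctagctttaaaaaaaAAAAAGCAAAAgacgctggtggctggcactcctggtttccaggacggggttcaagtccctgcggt
Neat1 long: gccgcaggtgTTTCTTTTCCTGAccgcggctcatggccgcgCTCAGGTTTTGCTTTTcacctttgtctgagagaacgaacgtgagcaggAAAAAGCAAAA

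The *Malat1* tract has 12 A in a row, and the annotated *Malat1* entry runs 298 bases past it, over the small RNA that RNase P releases. The long *Neat1* transcript ends at its tract and has no poly(A) signal AATAAA within its last 60 bases. The short *Neat1* transcript and the transcripts shown of the other RNAs hold it there, in capitals below, and so does the annotated end of *Malat1*, which lies downstream of the A tract (chr19:5795690-5795749). Of 141515 GENCODE transcripts of at least 60 bases, 27.15% hold AATAAA in that window, read on the transcript strand. A match is a description of the sequence and not a mapped cleavage site.
Malat1 annotated end: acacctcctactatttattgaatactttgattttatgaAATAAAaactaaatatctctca
Neat1 short: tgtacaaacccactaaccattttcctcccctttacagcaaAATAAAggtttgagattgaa
Tug1: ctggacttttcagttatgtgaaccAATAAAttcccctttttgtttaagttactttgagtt
Firre: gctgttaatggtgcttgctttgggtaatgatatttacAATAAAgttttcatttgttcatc
Lncenc1: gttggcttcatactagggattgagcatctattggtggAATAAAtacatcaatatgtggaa
Mir17hg: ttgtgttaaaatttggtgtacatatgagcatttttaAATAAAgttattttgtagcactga

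*Malat1*, the speckle RNA, fell in BAZ2A ΔTAM. Its level was 8.39, 8.02, 8.11 and 9.53 RPKM in the 4 BAZ2A wt libraries and 6.16, 4.91, 6.17 and 7.06 RPKM in the 4 BAZ2A ΔTAM libraries. Every BAZ2A ΔTAM library was below every BAZ2A wt library, and the lowest of all was BAZ2A ΔTAM replicate 2. The mean level was 8.51 ± 0.696 RPKM in BAZ2A wt and 6.07 ± 0.884 RPKM in BAZ2A ΔTAM (SD, n = 4 each). On the scale of log2(RPKM + 0.1), the difference was -0.49 (SE 0.108, 95% interval -0.74 to -0.24, limma adjusted p = 0.0105). Of the 9002 genes tested, 3.08% had a log2 fold change as low as this or lower.

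*Neat1*, the paraspeckle RNA, was lower in most BAZ2A ΔTAM libraries but did not pass the test. It had 0.369, 0.347, 0.329 and 0.307 RPKM in BAZ2A wt and 0.299, 0.247, 0.275 and 0.327 RPKM in BAZ2A ΔTAM. The groups overlapped, since BAZ2A ΔTAM replicate 4 was above BAZ2A wt replicate 4. The difference was -0.18 on the log2 scale (SE 0.0711, limma adjusted p = 0.0840), with an unadjusted 95% interval from -0.35 to -0.016. It rested on few reads, 225 to 394 per library. With voom on the reads recovered from the RPKM values, it was -0.23 with an adjusted p of 0.0223, and without BAZ2A ΔTAM replicate 4 it was -0.23 with a limma adjusted p of 0.0410, so the call depends on the fit and on this library. The file has a single *Neat1* entry, which does not tell the short from the long transcript.

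*Lncenc1*, the RNA of naive ESCs, fell in BAZ2A ΔTAM by a small and even step. It had 0.761, 0.725, 0.737 and 0.723 RPKM in BAZ2A wt and 0.627, 0.642, 0.618 and 0.624 RPKM in BAZ2A ΔTAM. The groups did not overlap, and within each group the libraries were closer together than for any other of the 6 RNAs, with a coefficient of variation of 2.36% and 1.62%. The mean fell by 14.8%, and the log2 difference was -0.20 (SE 0.0245, 95% interval -0.26 to -0.14, limma adjusted p = 7.34e-04).

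*Mir17hg*, the miR-17 cluster precursor, rose in BAZ2A ΔTAM. It had 0.805, 0.732, 0.971 and 0.987 RPKM in BAZ2A wt and 1.07, 1.11, 1.10 and 1.20 RPKM in BAZ2A ΔTAM. The groups did not overlap, but the BAZ2A wt libraries themselves were spread, with 2 low and 2 near the BAZ2A ΔTAM range. The mean was 1.28 times as high in BAZ2A ΔTAM, with a log2 difference of 0.33 (SE 0.0907, 95% interval 0.12 to 0.54, limma adjusted p = 0.0241). This gene had the fewest reads, 145 to 269 per library. The adjusted p was 0.0636 without BAZ2A wt replicate 1, 0.0511 without BAZ2A ΔTAM replicate 2, 0.05003 without replicate 3 and 0.0635 without replicate 4, so the call was lost in each of these fits.

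*Tug1* and *Firre* did not pass the test. *Tug1* had 1.69, 1.71, 1.72 and 1.84 RPKM in BAZ2A wt and 1.79, 1.73, 1.80 and 1.93 RPKM in BAZ2A ΔTAM. The groups overlapped, and the log2 difference was 0.05 (95% interval -0.040 to 0.15, limma adjusted p = 0.336). It was 0.025 without BAZ2A ΔTAM replicate 4 and 0.0014 with quantile normalization. *Firre* had 0.444, 0.427, 0.433 and 0.481 RPKM in BAZ2A wt and 0.532, 0.433, 0.456 and 0.462 RPKM in BAZ2A ΔTAM. These groups overlapped as well, and the log2 difference was 0.06 (95% interval -0.073 to 0.19, limma adjusted p = 0.450). Without BAZ2A ΔTAM replicate 1, the highest library, it was 0.011. The intervals leave room for differences of up to these bounds.

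**Figure D1:**
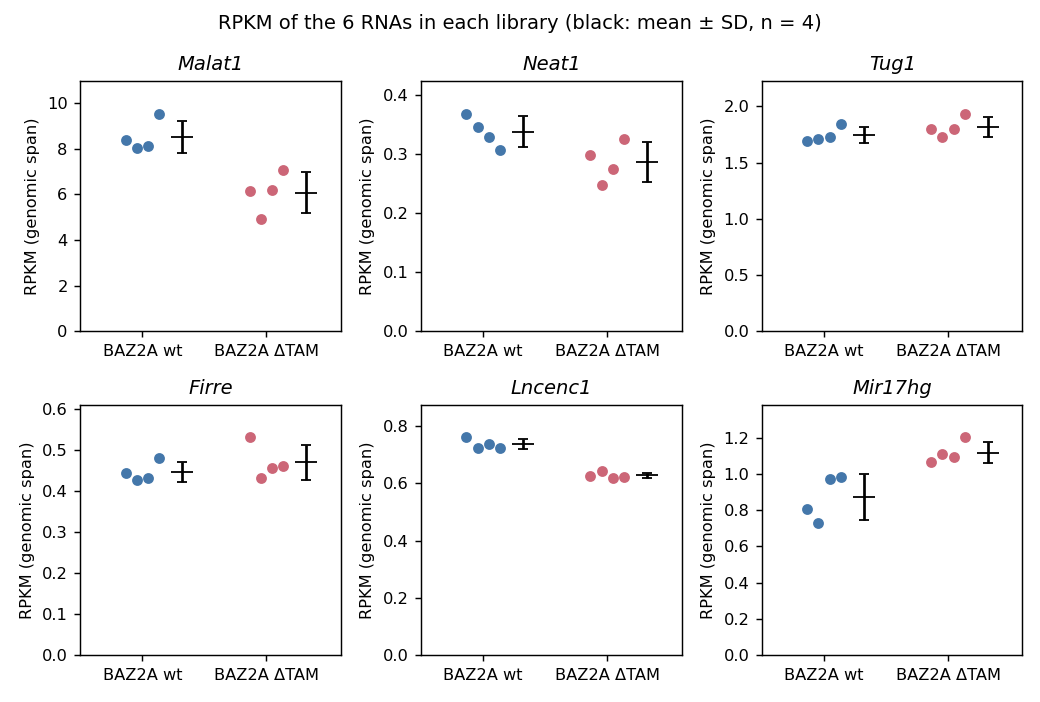
Level of each of the 6 RNAs in RPKM of genomic span (vertical axes from 0) in the 4 BAZ2A wt and the 4 BAZ2A ΔTAM libraries, 1 point per library in the order of the replicate number, with the mean and SD in black. The groups of *Malat1*, *Lncenc1* and *Mir17hg* do not overlap, and those of *Neat1*, *Tug1* and *Firre* do.

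Of the 6 RNAs, 3 had an adjusted p under 0.05, against 35.9% of all genes tested. *Mir17hg* was the only one that rose, against 19.9% of all genes, and *Malat1* and *Lncenc1* fell, against 16.0%. The groups did not overlap for 3 of the 6, against 37.2% of all genes. With voom on recovered reads 4 of the 6 were called, against 43.7% of the 12660 genes that fit tested. So many genes changed in this comparison that nothing is read from these counts. The median log2 fold change of all genes tested was 0.01.

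**Figure D2:**
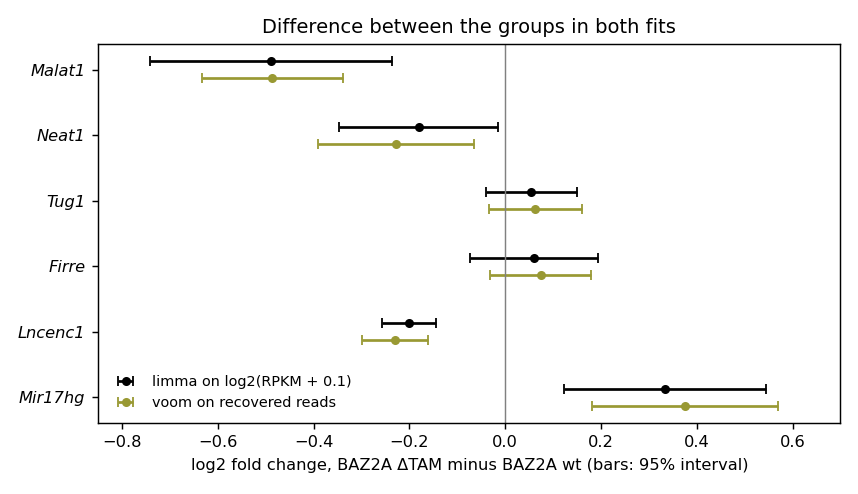
Log2 fold change of each RNA, BAZ2A ΔTAM minus BAZ2A wt, with its unadjusted 95% interval (horizontal bars), from limma on log2(RPKM + 0.1) in black and from voom on recovered reads in olive. The intervals of *Malat1*, *Neat1* and *Lncenc1* lie below 0 and those of *Mir17hg* above 0 in both fits, while those of *Tug1* and *Firre* span 0.

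To compare levels between the RNAs, the reads were divided by exon length, which the deposited scale does not do. On the scale of reads per 1000000 reads of the library and per kilobase of exon, the order of the level in BAZ2A wt was *Lncenc1* (13.8 ± 0.326, SD, n = 4), *Malat1* (8.51 ± 0.696), *Firre* (4.31 ± 0.234), *Tug1* (1.77 ± 0.0691), *Mir17hg* (0.951 ± 0.137) and *Neat1* (0.338 ± 0.0263). No neighbours in this order overlapped between libraries. The order was the same in BAZ2A ΔTAM, but there *Malat1* (6.07 ± 0.884) and *Firre* (4.54 ± 0.409) overlapped, since the lowest *Malat1* level was 4.91 and the highest *Firre* level 5.13. These levels take the counted reads as exonic. *Malat1* and long *Neat1* lack a poly(A) tail, so their place in the order is that of the RNA captured, and the share captured was not tested.

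**Figure D3:**
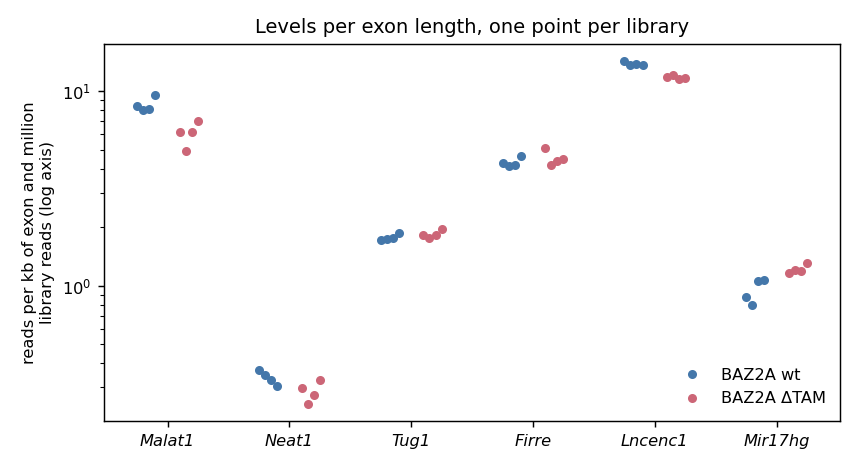
Level of the 6 RNAs as reads per 1000000 reads of the library and per kilobase of exon (vertical log axis), 1 point per library, BAZ2A wt in blue and BAZ2A ΔTAM in red. *Lncenc1* is highest and *Neat1* lowest in both groups, and *Malat1* and *Firre* come close to each other only in BAZ2A ΔTAM.

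*Malat1* also took a smaller share of the gene reads in BAZ2A ΔTAM. Its share was 0.0392%, 0.0374%, 0.0379% and 0.0448% in the BAZ2A wt libraries and 0.0289%, 0.0228%, 0.0287% and 0.0329% in the BAZ2A ΔTAM libraries. The 95% Wilson intervals, which cover counting error only, were at most 0.00299 percentage points wide and those of the 2 groups did not overlap. The mean share fell by 0.0115 percentage points, with an exact two-sided permutation p of 0.0286, the smallest that 4 against 4 libraries can give. The RPKM groups were already known not to overlap, so this p is not a further result. With the libraries paired by replicate number, the exact sign-flip p was 0.125, the smallest that 4 pairs can give.

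*Malat1* and *Neat1* are neighbours, and their ratio was compared because both lack a tail in full or in part. The ratio of *Neat1* to *Malat1* RPKM was 0.0440, 0.0432, 0.0406 and 0.0322 in BAZ2A wt and 0.0486, 0.0504, 0.0445 and 0.0463 in BAZ2A ΔTAM. Every BAZ2A ΔTAM library was above every BAZ2A wt library, though BAZ2A wt replicate 1 and BAZ2A ΔTAM replicate 3 were close. The mean log2 ratio was -4.65 ± 0.207 in BAZ2A wt and -4.40 ± 0.0787 in BAZ2A ΔTAM (SD, n = 4 each), a difference of 0.26 with an exact two-sided permutation p of 0.0286. Paired by replicate number, the exact sign-flip p was 0.125. Without BAZ2A wt replicate 4 the difference was 0.15, and the permutation p with 7 libraries was 0.0571, the smallest possible.

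**Figure D4:**
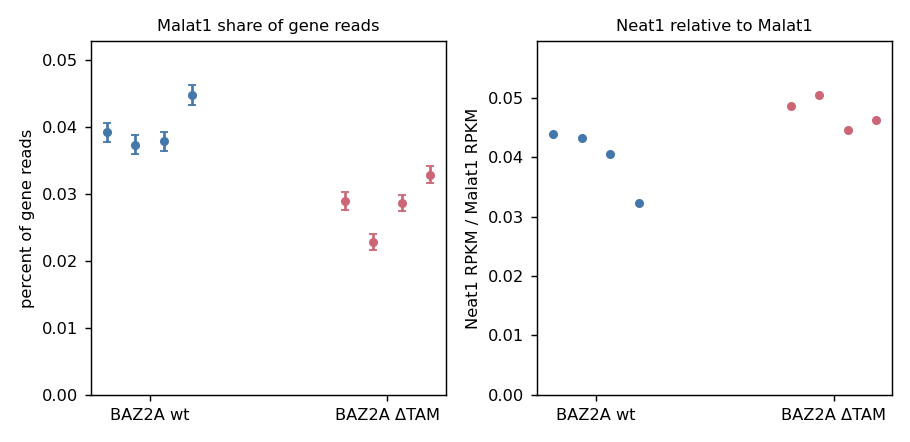
Left, *Malat1* reads as a percent of the reads on genes, with 95% Wilson intervals. Right, *Neat1* RPKM over *Malat1* RPKM. Each point is a library, and the axes start at 0. The *Malat1* share is lower in all 4 BAZ2A ΔTAM libraries and the ratio is higher.

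Other RNAs without a poly(A) tail were compared as well. Of 28 in a list of small structural RNAs and replication-dependent histone genes, 23 were above 0 and 7 were tested, of which 1 fell, the histone gene *Hist1h4d*, and none rose, against 35.9% of all genes called, with a median log2 fold change of -0.14. With voom 4 were tested, of which 1 rose, the histone gene *Hist1h1c* (log2 difference 0.94, adjusted p = 0.0432, from 36 and 70 reads over the groups), and none fell, against 21.8% of all genes in each direction. *Hist1h4d* was not among those tested with voom. Their summed level per library is small in reads, and it is given here by its parts. The structural RNAs *Rmrp*, *Rpph1*, *Terc* and *Rn7sk* together had 4.17 to 8.81 reads per 1000000 gene reads in BAZ2A wt and 3.12 to 3.68 in BAZ2A ΔTAM, from 32 to 68 and 21 to 32 reads. The groups of this sum do not overlap, as for 37.2% of all genes tested, and *Rpph1* gave most of its reads (127 over the BAZ2A wt and 85 over the BAZ2A ΔTAM libraries). The 22 histone genes had 12.8 to 16.2 reads per 1000000 gene reads in BAZ2A wt and 12.4 to 15.6 in BAZ2A ΔTAM, which overlap. *Rpph1*, the RNA of RNase P, had 1.98 ± 0.639 and 1.34 ± 0.261 RPKM (SD, n = 4 each) with a limma adjusted p of 0.103. *Rn7s1*, *Rn7s2*, *Hist1h2ad*, *Hist2h2ab* and *Hist2h3b* were at 0. The part of tail capture in the *Malat1* and *Neat1* differences was not tested.

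The study's primers for *Malat1* amplify the stretch chr19:5797607-5797804 (mm10, minus strand), which stops 1917 bases before the annotated end. It is shown because the study measured *Malat1* there by qRT-PCR and RNA immunoprecipitation, and used this region, which holds BAZ2A crosslinking signal, as RNA for binding assays in vitro. It lies upstream of the A tract. Capitals mark the primer sites.
Malat1 primer stretch: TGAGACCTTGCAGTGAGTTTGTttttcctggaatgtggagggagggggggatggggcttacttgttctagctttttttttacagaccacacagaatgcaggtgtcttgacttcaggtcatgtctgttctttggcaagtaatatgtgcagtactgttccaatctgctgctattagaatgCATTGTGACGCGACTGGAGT

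Of 11 genes tested for enzymes that shape these 3′ ends, the subunits of RNase P among them, 1 rose and 1 fell, against 35.9% of all genes called, with a median log2 fold change of 0.01. *Elac2*, which trims the 3′ ends of tRNA-like molecules, fell by 0.20 (0.454 ± 0.0209 and 0.382 ± 0.0324 RPKM, limma adjusted p = 0.0210). *Rpp14*, an RNase P protein, rose by 0.20 (0.566 ± 0.0166 and 0.665 ± 0.0615 RPKM, limma adjusted p = 0.0296).

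Genes for proteins of nuclear speckles, where *Malat1* resides, rose for the most part in BAZ2A ΔTAM. Of 15 genes tested, 10 rose and none fell by the limma test, with a median log2 fold change of 0.12, against 19.9% of all genes that rose and 16.0% that fell. With voom 11 rose and 1 fell, against 21.8% of all genes in each direction. The splicing factors *Srsf6* (8.23 ± 0.171 and 10.6 ± 0.489 RPKM, log2 difference 0.35) and *Srsf3* (4.54 ± 0.0597 and 5.69 ± 0.191 RPKM, 0.32) had the largest differences, with limma adjusted p of 3.29e-04 and 1.68e-04. *Srsf2* rose by 0.26, and *Son*, a core protein of speckles, by 0.16. *Srrm2*, the speckle scaffold, had 4.77 ± 0.201 and 5.14 ± 0.344 RPKM and a limma adjusted p of 0.157.

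Of 18 genes tested for paraspeckle proteins, the partners of *Neat1*, 4 rose, 4 fell and 10 did not pass, against 19.9% of all genes that rose and 16.0% that fell, with a median log2 fold change of 0.02. *Sfpq*, which *Neat1* needs to build paraspeckles, rose by 0.31 (3.53 ± 0.0856 and 4.42 ± 0.0730 RPKM, limma adjusted p = 1.15e-04), and its partner *Nono* fell by 0.09 (3.41 ± 0.0520 and 3.20 ± 0.0690 RPKM, limma adjusted p = 0.0223). *Hnrnpk* rose by 0.25, and *Taf15* fell by 0.35 (0.896 ± 0.0460 and 0.683 ± 0.0603 RPKM). *Pspc1* had 0.233 ± 0.0102 and 0.213 ± 0.00986 RPKM and a limma adjusted p of 0.0966.

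Of the 4 listed partners of *Firre*, 3 rose and 1 fell, where 35.9% of all genes were called, and *Firre* itself did not pass the test. *Hnrnpu*, the nuclear matrix protein that binds *Firre*, rose by 0.15 (9.36 ± 0.345 and 10.4 ± 0.303 RPKM, limma adjusted p = 0.0123). *Ctcf*, the insulator protein, rose by 0.13 and the cohesin subunit *Rad21* by 0.13. *Smc1a*, another cohesin subunit, fell by 0.30 (0.785 ± 0.0362 and 0.622 ± 0.0590 RPKM).

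The genes around *Lncenc1* in its known role are the splicing regulator *Ptbp1*, *Hnrnpk* and glycolysis. Of 17 genes tested, 1 rose, 4 fell and 12 did not pass, against 35.9% of all genes called, with a median log2 fold change of -0.05. *Ptbp1* had 7.53 ± 0.244 and 7.31 ± 0.210 RPKM (limma adjusted p = 0.357). The riser was *Hnrnpk*. The 4 that fell were the phosphofructokinases *Pfkp* (1.50 ± 0.0503 and 0.710 ± 0.0158 RPKM, log2 difference -0.98, limma adjusted p = 2.96e-06) and *Pfkl* (1.17 ± 0.0915 and 0.876 ± 0.0376 RPKM, -0.37), with *Pgk1* (-0.29) and *Ldha* (-0.24). *Lncenc1* is also a member of the Platr family of RNAs that are high in ESCs. Of 9 other Platr genes tested, 1 rose, 3 fell and 5 did not pass, against 19.9% of all genes that rose and 16.0% that fell, with a median of -0.21. *Platr5* rose by 1.01 from few reads (40 reads over the 4 BAZ2A wt libraries and 93 over the 4 BAZ2A ΔTAM libraries), and *Platr23*, *Platr10* and *Platr14* fell by 0.39, 0.25 and 0.21.

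*Mir17hg* gives rise to 6 mature miRNAs. They are shown because their seeds (bases 2 to 8, in capitals) decide which transcripts they can pair with. The sequences are from RefSeq (GRCm38.p6), all on chromosome 14 within the *Mir17hg* span.
miR-17-5p: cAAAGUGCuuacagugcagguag
miR-20a-5p: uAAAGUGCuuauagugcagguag
miR-18a-5p: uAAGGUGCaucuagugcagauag
miR-19a-3p: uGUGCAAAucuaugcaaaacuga
miR-19b-3p: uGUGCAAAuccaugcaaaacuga
miR-92a-3p: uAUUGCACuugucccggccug

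These fall into 4 seeds. miR-17-5p and miR-20a-5p share a seed, miR-19a-3p and miR-19b-3p share another, and miR-18a-5p and miR-92a-3p have seeds of their own. The entries of all 6 hairpins were at 0 reads in every library. They lie within *Mir17hg* exons, and how reads in such overlaps were assigned is not stated. Apart from this, mature miRNAs are too short for this library type, so the files bear on the precursor and not on the miRNAs. Of 8 known targets of the cluster tested, 4 rose, 2 fell and 2 did not pass, against the same 19.9% and 16.0% of all genes, with a median log2 fold change of 0.03. *Cdkn1a*, an inhibitor of the cell cycle and a known target of the seed that miR-17-5p and miR-20a-5p share, rose by 0.60 (4.78 ± 0.213 and 7.27 ± 0.148 RPKM, limma adjusted p = 3.63e-05). *Ctgf*, a matrix protein gene, rose by 0.77 (1.01 ± 0.0824 and 1.80 ± 0.172 RPKM, limma adjusted p = 2.59e-04). The related miR-106b cluster lies in an intron of *Mcm7*, a subunit of the replicative helicase, which rose by 0.15 (9.84 ± 0.295 and 10.97 ± 0.369 RPKM, limma adjusted p = 0.00904).

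Of the transcription factors known to act on *Mir17hg*, 5 were tested, of which 3 rose and 2 fell, against 35.9% of all genes called. Those that rose were *E2f1* by 0.25 (1.19 ± 0.0761 and 1.44 ± 0.0628 RPKM, limma adjusted p = 0.00625), *E2f2* by 0.21 and *E2f3* by 0.18. *E2f1* is also counted among the targets of the cluster that rose. Those that fell were *Mycn* by 0.89 (3.32 ± 0.169 and 1.75 ± 0.191 RPKM, limma adjusted p = 1.28e-04) and *Mycl* by 0.34. *Myc* itself was below the filter at 0.0867 ± 0.0132 and 0.0852 ± 0.0173 RPKM.

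**Figure D5:**
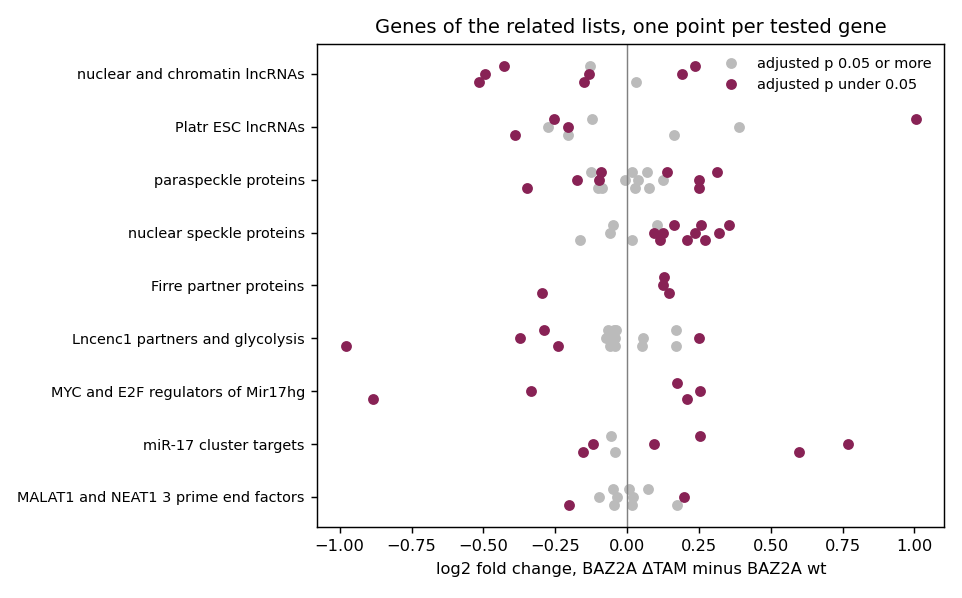
Log2 fold change, BAZ2A ΔTAM minus BAZ2A wt, of the tested genes of each list related to the 6 RNAs, 1 point per gene (spread vertically for view). Purple points have a limma adjusted p under 0.05. Called speckle protein genes all lie above 0, and called paraspeckle protein genes lie on both sides.

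Among other nuclear and chromatin-bound long noncoding RNAs, 9 of 28 in the file were tested, of which 2 rose, 5 fell and 2 did not pass, against 19.9% and 16.0% of all genes, with a median log2 fold change of -0.13. *Meg3* (2.88 ± 0.161 and 1.98 ± 0.183 RPKM, log2 difference -0.52, limma adjusted p = 9.78e-04) and *Rian* (1.94 ± 0.0790 and 1.35 ± 0.106 RPKM, -0.49, limma adjusted p = 4.62e-04), maternally expressed RNAs of the Dlk1-Dio3 imprinted locus, fell. *Bvht* fell by 0.43 (0.201 ± 0.0307 and 0.124 ± 0.0264 RPKM), and *Snhg1*, a host of small nucleolar RNAs, rose by 0.24 (8.04 ± 0.288 and 9.50 ± 0.639 RPKM).

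Genes next to the 6 RNAs on the chromosome were compared in the same way. *Frmd8*, above *Neat1* by 4224 bases, had 0.332 ± 0.0344 and 0.349 ± 0.0117 RPKM (limma adjusted p = 0.458). *Morc2a*, whose start overlaps that of *Tug1* on the other strand, fell by 0.13 (0.710 ± 0.0263 and 0.642 ± 0.0112 RPKM, limma adjusted p = 0.0125), and how reads in the overlap were assigned is not stated. *Enc1*, the lower neighbour of *Lncenc1*, had a log2 difference of 0.13 (limma adjusted p = 0.0503). *Smtn*, *Rbmx2*, *Rap2c*, *Utp15*, *Tpm3-rs7* and *Tgds* had adjusted p values from 0.138 to 0.861.

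As a description over 8 libraries that also differ by group, Pearson's r of log2(RPKM + 0.1) between pairs of these RNAs ran from -0.808, between *Lncenc1* and *Mir17hg*, to 0.784, between *Malat1* and *Neat1*. *Lncenc1* had an r of 0.778 with *Malat1* and 0.689 with *Neat1*. *Mir17hg* had an r of -0.562 with *Malat1*, -0.669 with *Neat1* and 0.700 with *Tug1*. *Tug1* had an r of 0.00329 with *Malat1* and -0.164 with *Neat1*, and *Firre* had values from -0.416 to 0.489 with the other RNAs. Among the 2151 genes whose mean level reached 1 RPKM, those closest to *Malat1* were *Abce1* (r = 0.951), *Spry2* (0.949) and *Eif2s2* (0.938). Those closest to *Neat1* were *Pigo*, *Cyb5r1* and *Rps15* (0.899 to 0.924), and those closest to *Tug1* were *Ncl*, *Supt16* and *Aqp3* (0.834 to 0.919). *Firre* was closest to *Srrm2* (0.954), *Ccnl2* and *Gm43980*. *Lncenc1* was closest to *Rbbp7* (0.994), *Mt2* and *Tdgf1-ps1*, each of which fell. *Mir17hg* was closest to *Fbxo5* (0.973), *Stk38* and *Hnrnpa2b1*, each of which rose.

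Overlapping entries limit what these values hold. In *Malat1*, *Neat1*, *Tug1* and *Mir17hg*, 7.72%, 1.85%, 11.6% and 15.2% of the exon bases also belong to other annotated genes. Of these, all but *Morc2a* were at 0 in every library. *Firre* and *Lncenc1* share no exon base with another gene.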

How the data were processed

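RNA-seq was analysed from 8 libraries, 4 per group as labelled. The authors enriched poly(A) RNA (TruSeq Stranded mRNA), removed ribosomal reads, trimmed the rest, aligned them to mm10 with STAR, took the coverage of each gene's exons and deposited RPKM values per library. Trimmomatic 0.36, FastQC and DESeq2 are named in the submitters' processing notes. The annotation release and the use of strand are not given in the sources used here. Times the span, 99.6% of low values were within 0.05 of whole reads, from which reads were recovered. They gave 14.9% to 15.0% of the library totals on genes.

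Of 51288 entries, 386 repeats were set aside. Fold changes came from limma 3.58.1 (R 4.3.3) on log2(RPKM + 0.1), with a trend in eBayes, for genes whose mean reached 0.1 RPKM. Benjamini-Hochberg adjustment was over all genes tested. The code was tested on simulated data. Single values were tested with exact permutation (SciPy 1.17.1). Alternatives were the pseudocount, filter, scaling, eBayes settings, replicate block, voom on genes with at least 10 reads, and each library left out. Same-numbered libraries deviated together (r of 0.332, 0.144, 0.196 and 0.237), a pairing seen in the data and not stated in the labels.

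The RNAs and gene lists were chosen with earlier results of these data known. Genes named are the 6 RNAs, *Baz2a*, known partners, nearest tested neighbours, the 3 genes most alike in pattern and, per list, the 2 genes with the largest change among adjusted p under 0.05 (up to 4 for long noncoding RNA lists). Others, such as *Nanog*, *Pgk1* and *Rpph1*, were named after their values were seen. Some results under this rule are not reported here.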

Additional observations from a re-analysis of the deposited data

Results flagged for a closer look

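In 62 groups of 4 libraries that were checked for a library far from the others, 3 stood out by Dixon's criterion, where chance gives about 1 in 20. None of the 6 RNAs was among them. *Bvht* was at 0.247 RPKM in BAZ2A wt replicate 4, and the next library had 0.192 RPKM. *Platr10* was at 1.04 RPKM in BAZ2A ΔTAM replicate 1, and the next library had 1.25 RPKM. *Sfpq* was at 4.31 RPKM in BAZ2A ΔTAM replicate 1, and the next library had 4.44 RPKM.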

How the results depend on the processing

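*Malat1*, *Lncenc1*, *Tug1* and *Firre* kept their direction and their side of the adjusted p of 0.05 in every alternative run. Log2 differences ranged from -0.56 to -0.39 for *Malat1* and from -0.23 to -0.093 for *Lncenc1*, 0.0014 to 0.080 for *Tug1* and 0.011 to 0.092 for *Firre*. *Neat1* passed with voom (-0.23) and without BAZ2A ΔTAM replicate 4, with a range of -0.23 to -0.13 over the libraries left out and -0.056 with a pseudocount of 1. *Mir17hg* did not pass without a filter on low values (0.33, limma adjusted p = 0.0573) or without 4 of the libraries, with a range of 0.26 to 0.39 over the libraries left out and 0.18 with a pseudocount of 1, where it passed. A filter of at least 1 RPKM left only *Malat1* and *Tug1* of the 6, with 992 genes called in all and 33 list genes, from fewer genes tested. Against 3228 genes called, voom called 5528, and fits without a library 2619 to 3054. List genes called were 51, and 43 to 49 without a library. The replicate block gave exact sign-flip p of 0.125 for the *Neat1* to *Malat1* ratio (0.26, or 0.255 before rounding) and the *Malat1* share (-0.0115), and it changed no other call of the 6 RNAs. With 1 library left out, the ratio differed by 0.15 to 0.30 and the share by -0.0130 to -0.00965, with an exact permutation p of 0.0571 each, which 4 against 3 libraries cannot go below. The counting error of *Neat1* and *Mir17hg* was 5.32% and 7.69% of the level in a BAZ2A wt library. Their coefficient of variation between the BAZ2A wt libraries was larger, 7.79% and 14.4%. The part of depth in these calls was not tested.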
